A study of Mus musculus with 4 samples.

Results

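The kinetochore is the protein machine on each centromere that holds a chromosome to the spindle, and the spindle checkpoint is the alarm that machine sends while any chromosome is unattached. The genes described here are 40 such genes chosen by name: centromere proteins, outer kinetochore complexes and checkpoint proteins. Of the 40 symbols, 38 were listed in the deposited tables, against 22552 symbols in all, and Ska2 and Ska3 were not listed under those names. Levels are in FPKM, fragments scaled for transcript length and library size. All 38 averaged 1 FPKM or more, the minimum set for testing, so all were tested.

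The cells were mouse spermatogonial stem cells, the germ cells of the testis that both renew themselves and give rise to sperm. They came from testes of 5-7-day-old DBA/C57 F1 males, carried an inducible knockout of the microRNA miR-202, and are labelled wild type in genotype. Both groups were plated overnight on laminin, after which 2 libraries came from cells given 10 µg/ml doxycycline for 2 days, the drug that triggers the knockout, and 2 from cells left without it. The design names a pair of single-cell clones used in both conditions, so the comparison rests on 2 clones, and p-values speak only of how these libraries spread. Loss of miR-202 and exposure to the drug itself cannot be told apart, since no doxycycline-treated cells lacking the inducible knockout were analysed here. The precursor gene Mir202 is listed at 0 in every library, so the tables hold no check of the knockout. The study's title concerns cell cycle regulators and RNA-binding proteins that miR-202 holds down in these cells.

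On the centromere, nucleosomes with the histone variant CENP-A recruit an inner layer of proteins, the constitutive centromere-associated network (CCAN). The MIS12 complex ties that layer to KNL1 and to the NDC80 complex, whose long arm grips the microtubule. Unattached kinetochores load BUB and MAD proteins, which hold back the anaphase-promoting complex until all chromosomes are captured. Many of these genes are transcribed late in the cell cycle, as cells near mitosis.

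The libraries were alike, with FPKM totals of 313981 and 320243 with doxycycline and of 309153 and 314507 without. Read depth is unknown. Relative depth, read from the smallest values of each table, was 1 and 1.22 for the doxycycline libraries and 1.33 and 1.56 for the untreated ones, so in each pair the doxycycline library was the shallower. All 13 germ cell markers were above the filter, with summed levels of 1361 to 1457 FPKM with doxycycline and 1380 to 1471 FPKM without, and the most abundant was Uchl1. Of the 13, 4 were higher with doxycycline in both pairs and 5 lower (34% of all genes were lower), and Nanos3 (log2 change -0.30) fell with the block (limma adjusted p = 0.0413, and 0.212 without it). Of 9 fibroblast markers 8 were above it, and their list summed to 154 and 140 FPKM with doxycycline and to 149 and 115 FPKM without, led by S100a4, and 5 of the 8 were higher with doxycycline in both pairs (32.8% of all genes tested were), with a median log2 change of 0.16 and none past the threshold in either fit. Markers of Sertoli cells (2 of 8 above it, 5.19 to 6.45 FPKM in sum with doxycycline and 4.74 to 5.13 FPKM untreated), of Leydig and peritubular cells (1 of 8, 8.09 to 12.6 with doxycycline and 11.6 to 13.7 untreated) and of macrophages and blood (2 of 8, 5.67 to 8.47 with doxycycline and 5.70 to 6.44 untreated) were low, and Fshr, Cyp17a1, Hsd3b1, Lhcgr and Hbb-b1 were at 0 in every library. The part of these levels in the results was not tested.

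Kinetochore and checkpoint genes were mostly a little higher with doxycycline. Their median log2 change, taken on log2(FPKM + 1), was 0.12, against -0.0022 over all 11924 genes tested, and it was 0.12 in the replicate 1 libraries and 0.12 in the replicate 2 libraries. Of the 38 genes, 29 were higher with doxycycline in both same-numbered pairs, which 32.8% of all genes tested were, and 5 were lower in both, as were 34% of all. In 27 genes both doxycycline libraries lay above both untreated ones (background 23.5%), and in 2, Nsl1 and Cenpo, both lay below (24.9%). In bulk RNA, more cells in mitosis and more RNA per cell cannot be told apart.

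Few of these changes passed the test over the whole table. With limma and Benjamini-Hochberg adjustment over all genes, Cenpm and Cenpf rose at an adjusted p under 0.05, 2 of 38 where 0.218% of all genes rose. None fell (background 0.0587%, and 0 at an unadjusted p under 0.05, where 6.63% of all genes were lower), while 14 were higher at an unadjusted p under 0.05, as were 8.46% of all. With the replicate number as a block, 7 rose (background 2.73%) and none fell (0.973%), and Spc25, Sgol2, Cenpa, Bub1 and Bub3 joined the 2. Fewer of the 38 passed whichever library was left out of the fit without the block. Over all genes fewer passed too, except without doxycycline replicate 1, where more did. The median log2 change of the 38 ran from 0.11 to 0.14 across these fits.

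**Figure D1:**
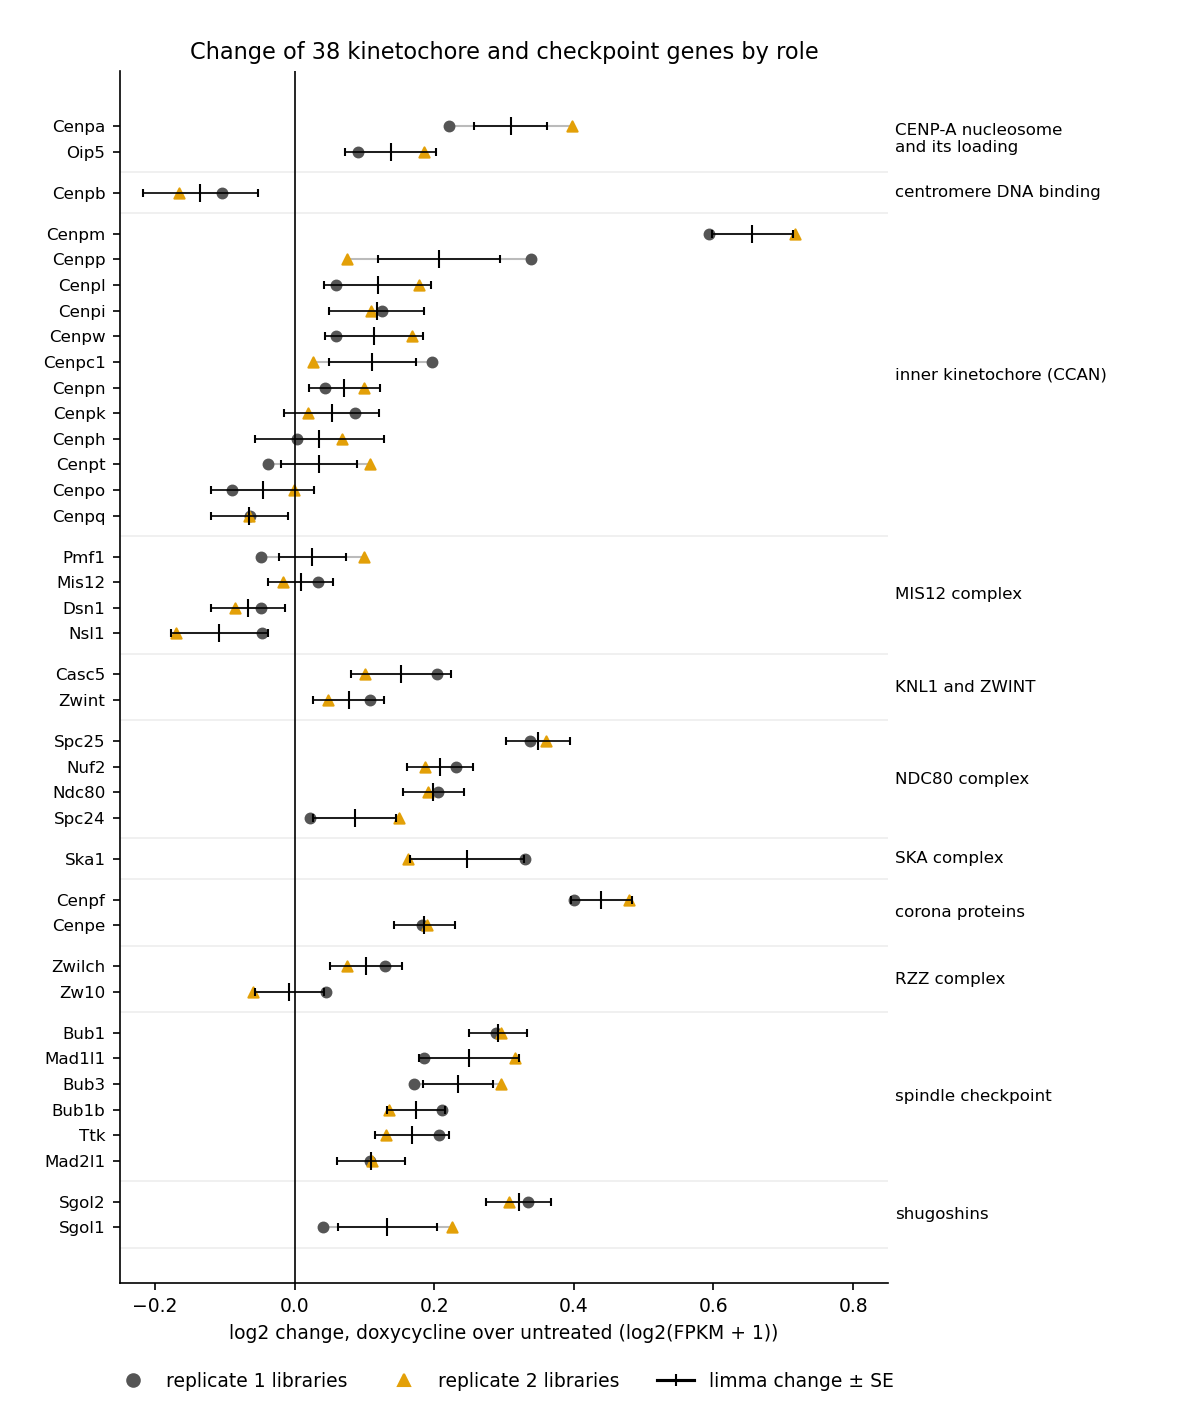
Log2 change with doxycycline over untreated (x axis, log2(FPKM + 1) scale) of the 38 genes, grouped by role. Grey circles are the replicate 1 libraries, yellow triangles the replicate 2 libraries, and black bars the limma change with its standard error. Cenpm and Cenpf lie farthest right, at 0.66 and 0.44, and the 4 MIS12 complex genes lie around 0, from -0.11 to 0.03.

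CENP-M, a small GTPase-like protein that packs against CENP-I in the inner layer, had the largest change. Its gene Cenpm (mm9 chr15:82064206-82075177) was at 15.8 and 17.0 FPKM with doxycycline, against 10.1 and 9.92 FPKM without. The 2 treated libraries stood clear of the untreated ones. The bounds that the authors deposited for doxycycline replicate 1 were 13.8 to 17.8 FPKM; such bounds cover the estimation error within that library, not the spread between libraries. The means were 16.4 ± 0.81 FPKM with doxycycline and 10.0 ± 0.16 FPKM without (SD, n = 2 each), a 1.63-fold rise and a log2 change of 0.66 ± 0.06 (SE; limma adjusted p = 0.0291). Among all genes tested its rise ranked 38 from the top. The limma adjusted p was 0.0233 without doxycycline replicate 1. It missed the threshold without doxycycline replicate 2 (0.0797), untreated replicate 1 (0.161) or untreated replicate 2 (0.128).

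CENP-F, a very large coiled-coil protein of the outermost layer that builds up through G2 and is destroyed after mitosis, came next. Cenpf (mm9 chr1:191464493-191511965) was at 41.7 and 42.0 FPKM with doxycycline, against 31.4 and 29.9 FPKM without. The groups did not overlap, and the deposited bounds of doxycycline replicate 1 were narrow, 40.9 to 42.5 FPKM. Means of 41.9 ± 0.22 with doxycycline and 30.6 ± 1.06 FPKM without (SD, n = 2 each) gave a 1.37-fold rise and a log2 change of 0.44 ± 0.04 (SE; limma adjusted p = 0.0291). Its call was lost in each of the 4 fits that left out a library, with limma adjusted p of 0.0541 and 0.0982 without doxycycline replicates 1 and 2, and of 0.161 and 0.143 without untreated replicates 1 and 2. CENP-E, the kinesin motor that shares this outer corona and carries chromosomes to the spindle equator, was at 23.4 and 23.6 FPKM with doxycycline and 20.5 and 20.6 FPKM without, a log2 change of 0.19 that passed in neither fit (limma adjusted p = 0.167).

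**Figure D2:**
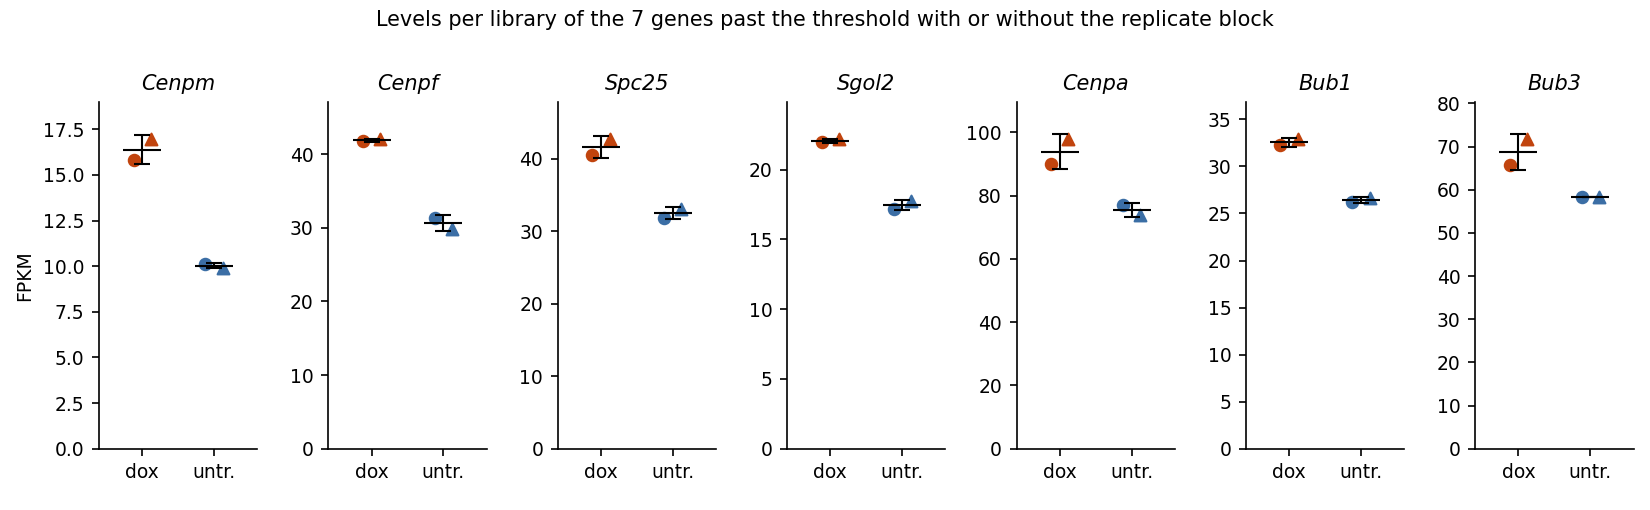
Level in FPKM (y axis, from 0) of the 7 genes past the threshold with or without the replicate block, in the doxycycline (red, left) and untreated (blue, right) libraries. Circles are replicate 1, triangles replicate 2, and black bars the mean ± SD of 2 libraries. Each panel has its own scale. In every panel both treated libraries lie above both untreated ones. The ratio of means is largest for Cenpm (1.63-fold), at 15.8 and 17.0 FPKM with doxycycline against 10.1 and 9.92 FPKM without.

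The promoters of 6 genes that rose with the block are shown because they hold a short element known from genes of late cell cycle, described next, which the promoters of Sgol2, the other gene of the 7, did not. Each runs from 250 bases before to 50 bases after the start site, 5′ to 3′ on the gene's strand, as given by RefSeq for GRCm38.p6. Capitals mark matches on either strand to the cell cycle homology region (CHR, TTTGAA), to its variant TTCGAA, to CCAAT, the box that NF-Y binds, and to 4 E2F-type heptamers. Cenpm lies on the minus strand at chr15:82244287-82244586, Cenpf on the minus strand at chr1:189688037-189688336, Spc25 on the minus strand at chr2:69206164-69206463, Cenpa on the plus strand at chr5:30666636-30666935, Bub1 on the minus strand at chr2:127831810-127832109 and Bub3, by the first of its annotated starts, on the plus strand at chr7:131560120-131560419.
Cenpm: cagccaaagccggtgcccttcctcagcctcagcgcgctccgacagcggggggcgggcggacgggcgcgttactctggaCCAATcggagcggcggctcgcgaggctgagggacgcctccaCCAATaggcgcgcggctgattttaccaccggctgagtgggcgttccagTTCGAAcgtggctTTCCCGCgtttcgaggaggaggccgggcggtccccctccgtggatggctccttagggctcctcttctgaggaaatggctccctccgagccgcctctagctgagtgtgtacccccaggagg
Cenpf: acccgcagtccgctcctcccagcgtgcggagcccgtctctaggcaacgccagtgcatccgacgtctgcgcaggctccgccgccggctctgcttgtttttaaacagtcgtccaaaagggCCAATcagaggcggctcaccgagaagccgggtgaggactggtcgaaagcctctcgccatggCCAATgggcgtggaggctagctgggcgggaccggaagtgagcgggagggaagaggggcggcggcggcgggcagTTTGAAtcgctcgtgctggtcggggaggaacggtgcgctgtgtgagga
Spc25: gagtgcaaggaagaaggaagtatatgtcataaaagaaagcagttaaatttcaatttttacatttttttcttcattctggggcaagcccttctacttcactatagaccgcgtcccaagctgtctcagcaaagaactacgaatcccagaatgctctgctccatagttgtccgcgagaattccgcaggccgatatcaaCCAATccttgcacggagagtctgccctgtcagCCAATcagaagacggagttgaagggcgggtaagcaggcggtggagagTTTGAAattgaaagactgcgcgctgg
Cenpa: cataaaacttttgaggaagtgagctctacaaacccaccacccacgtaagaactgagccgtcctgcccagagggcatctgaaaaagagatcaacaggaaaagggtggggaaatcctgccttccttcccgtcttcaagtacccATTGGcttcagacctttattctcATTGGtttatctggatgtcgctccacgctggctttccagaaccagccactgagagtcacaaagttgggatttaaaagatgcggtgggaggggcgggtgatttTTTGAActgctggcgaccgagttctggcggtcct
Bub1: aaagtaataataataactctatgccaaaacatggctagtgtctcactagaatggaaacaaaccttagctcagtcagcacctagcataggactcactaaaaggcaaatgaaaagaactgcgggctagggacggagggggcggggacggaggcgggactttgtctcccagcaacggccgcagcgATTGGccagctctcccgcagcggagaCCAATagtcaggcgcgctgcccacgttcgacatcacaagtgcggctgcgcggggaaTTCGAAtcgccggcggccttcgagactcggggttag
Bub3: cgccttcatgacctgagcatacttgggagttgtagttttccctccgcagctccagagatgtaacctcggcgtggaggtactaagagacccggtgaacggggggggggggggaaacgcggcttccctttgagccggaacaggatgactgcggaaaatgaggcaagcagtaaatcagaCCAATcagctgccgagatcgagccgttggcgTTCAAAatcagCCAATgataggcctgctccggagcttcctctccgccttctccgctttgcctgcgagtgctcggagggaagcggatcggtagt
In Cenpf, Spc25, Cenpa and Bub1 the CHR or its variant began 3 to 25 bases past the start site, with a pair of NF-Y boxes before the start. In Cenpm the variant began at -83 and an E2F-type match at -70, counted from the start site, and a pair of NF-Y boxes lay farther out. In Bub3 the CHR lay before the start, at -43, between NF-Y boxes at -74 and -32.

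At the base of the kinetochore, CENP-A is the histone variant that marks where it is built. Cenpa was the most abundant of the 38 genes, with 89.9 and 97.8 FPKM in doxycycline libraries, against 77.0 and 74.0 FPKM in untreated ones. Both treated values were higher, though the treated libraries also differed more from each other than the untreated ones did. The 1.24-fold difference, a log2 change of 0.31 ± 0.05 (SE), had a limma adjusted p of 0.0894, and 0.0199 with the block. OIP5, a subunit of the Mis18 complex that licenses new CENP-A, was at 7.95 and 8.52 FPKM with doxycycline and 7.40 and 7.38 FPKM without, a log2 change of 0.14 that passed in neither fit. CENP-B, which binds a DNA box in the centromeric satellite, had the lowest change of the 38 in the fit of all 4 libraries, with Cenpb at 11.8 and 10.3 FPKM in treated libraries and 12.8 and 11.7 FPKM in untreated ones. It was lower in both pairs, but the groups overlapped and it did not pass (log2 change -0.13, limma adjusted p = 0.481, and 0.195 with the block). Its log2 change was -0.041 without doxycycline replicate 2 and -0.072 without untreated replicate 1. In both of these fits other genes of the 38, Nsl1, Dsn1 and Cenpq among them, were lower than Cenpb. The log2 change of Cenpb was -0.23 without doxycycline replicate 1 and -0.20 without untreated replicate 2.

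In the inner layer of 12 CCAN genes, Cenpm stood alone. It was the only one of the 12 to pass in either fit, and the other 11 had log2 changes from -0.06 for Cenpq to 0.21 for Cenpp. The median of the 12 was 0.09, and 9 were higher in both pairs and 2 lower, as were 32.8% and 34% of all genes tested. CENP-P, partner of CENP-O, showed uneven pairs: Cenpp was at 15.2 and 15.1 FPKM with doxycycline, against 11.8 and 14.3 FPKM without, so that its log2 change was 0.34 in replicate 1 and 0.08 in replicate 2. CENP-I, the large solenoid protein that CENP-M binds, was at 7.17 and 6.79 FPKM with doxycycline and 6.49 and 6.22 FPKM without, a log2 change of 0.12 (limma adjusted p = 0.453).

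None of the rest of this layer passed in either fit. CENP-C, the pillar that links CENP-A nucleosomes to the MIS12 complex, had Cenpc1 at 14.6 and 13.3 FPKM with doxycycline, against 12.6 and 13.1 FPKM without. CENP-L and CENP-N, which sit next to the CENP-A nucleosome, had log2 changes of 0.12 for Cenpl and 0.07 for Cenpn. The histone-fold proteins CENP-T and CENP-W were at 0.04 and 0.11, and CENP-H and CENP-K at 0.04 and 0.05. Cenpt changed in opposite directions in the pairs, -0.04 in replicate 1 and 0.11 in replicate 2. Cenpo and Cenpq, whose proteins share a complex with CENP-P, were lower in both pairs, Cenpo at 4.07 and 4.31 FPKM with doxycycline against 4.40 and 4.32 FPKM without, and Cenpq at 17.2 and 18.2 FPKM with doxycycline, against 17.99 and 19.1 FPKM without. Those differences were small, and the groups of Cenpq overlapped. Neither passed (log2 changes -0.05 and -0.06, limma adjusted p = 0.812 and 0.619).

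The MIS12 complex, the bridge between the inner and outer layers, was the one complex with no member higher in both pairs (32.8% of all genes tested were). Its 4 genes summed to 99.8 and 102.9 FPKM with doxycycline, and to 102.1 and 101.9 FPKM without. Dsn1 was at 21.5 and 22.4 FPKM in treated libraries and 22.3 and 23.9 FPKM in untreated ones, and Nsl1 at 6.02 and 5.79 FPKM in treated libraries and 6.25 and 6.64 FPKM in untreated ones. Both were lower in each pair, with log2 changes of -0.07 and -0.11 that did not pass (limma adjusted p = 0.588 and 0.504). Mis12 and Pmf1 had pairs of opposite sign and log2 changes of 0.01 and 0.03. Of the proteins it carries, KNL1, the scaffold on which BUB proteins gather, had its gene (listed as Casc5) at 6.13 and 5.69 FPKM with doxycycline, against 5.19 and 5.24 FPKM without, and ZWINT, which binds KNL1, had Zwint at 36.1 and 37.3 FPKM with doxycycline, against 33.5 and 36.1 FPKM without. Both genes were higher in each pair, with log2 changes of 0.15 and 0.08 that passed in neither fit.

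The NDC80 complex is the main microtubule grip, with NDC80 and NUF2 at the microtubule end and SPC24 and SPC25 at the anchored end. All 4 genes had both treated libraries above both untreated ones (23.5% of all genes tested did), and they summed to 98.7 and 102.2 FPKM with doxycycline, against 83.1 and 85.2 FPKM without. Spc25 was at 40.5 and 42.7 FPKM with doxycycline, against 31.9 and 33.0 FPKM without, a 1.28-fold difference and a log2 change of 0.35 ± 0.05 (SE) that just missed the threshold (limma adjusted p = 0.0578, and 0.00633 with the block). Ndc80 was at 27.1 and 27.7 FPKM with doxycycline and 23.4 and 24.1 FPKM without, and Nuf2 at 18.8 and 18.7 FPKM with doxycycline and 15.9 and 16.3 FPKM without. These partners had log2 changes of 0.20 and 0.21 that passed in neither fit (0.0511 and 0.0586 with the block, by limma). Spc24, the direct partner of Spc25, was at 12.2 and 13.1 FPKM in treated libraries and 12.0 and 11.7 FPKM in untreated ones, with a log2 change of 0.09. The SKA complex, which helps NDC80 follow shrinking microtubules, had 1 gene under the listed names: Ska1, the least abundant of the 38, with 4.51 and 4.08 FPKM with doxycycline and 3.38 and 3.54 FPKM without. Its log2 change of 0.25 did not pass (limma adjusted p = 0.256). RefSeq gives Fam33a and F630043A04Rik as older names of Ska2 and Ska3. The tables listed Fam33a at 7.30 and 7.26 FPKM with doxycycline and 5.66 and 6.10 FPKM without, and F630043A04Rik at 13.6 and 14.2 FPKM with doxycycline and 13.3 and 13.0 FPKM without. Neither passed (limma adjusted p = 0.196 and 0.546), and neither is among the 38.

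All 6 spindle checkpoint genes had both treated libraries above both untreated ones (23.5% of all genes tested did). They summed to 229.5 and 236.0 FPKM with doxycycline, against 200.5 and 203.3 FPKM without, and their log2 changes ran from 0.11 to 0.29 with a median of 0.20. Bub1, the kinase that recruits the other checkpoint proteins to KNL1, was at 32.2 and 32.9 FPKM with doxycycline, against 26.2 and 26.6 FPKM without. The replicates lay close together, and the 1.23-fold difference (log2 change 0.29 ± 0.04, SE) had a limma adjusted p of 0.0636, and 0.0135 with the block. Bub3, the adaptor that carries BUB1 and BUBR1, was at 65.8 and 71.7 FPKM with doxycycline, against 58.3 and 58.3 FPKM without, a log2 change of 0.23 ± 0.05 (SE; limma adjusted p = 0.149, and 0.0342 with the block). None of the other 4 passed in either fit. Bub1b, the gene of BUBR1, a subunit of the complex that inhibits the anaphase-promoting complex, was at 53.6 and 51.1 FPKM with doxycycline and 46.1 and 46.5 FPKM without. Ttk, the gene of the kinase MPS1 that starts the signal, was at 23.4 and 23.9 FPKM with doxycycline and 20.2 and 21.8 FPKM without. Both were higher in each pair, with log2 changes of 0.17 each. Of the MAD genes, Mad1l1, the platform that converts MAD2, was at 14.5 and 14.1 FPKM with doxycycline and 12.6 and 11.1 FPKM without (log2 change 0.25 ± 0.07, SE). Mad2l1 was at 39.98 and 42.2 FPKM with doxycycline and 37.0 and 39.0 FPKM without (0.11 ± 0.05, SE). A difference between their changes was not tested.

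The RZZ complex, which brings dynein and the MAD proteins to unattached kinetochores, changed little. Zwilch was at 21.9 and 22.5 FPKM with doxycycline and 19.9 and 21.3 FPKM without, a log2 change of 0.10, and Zw10 at 20.1 and 19.3 FPKM with doxycycline and 19.5 and 20.1 FPKM without, a log2 change of -0.01 with pairs of opposite sign. Shugoshins guard the cohesin that keeps sister centromeres together, and in the mouse SGOL2 does so in meiosis. Sgol2 was at 21.96 and 22.2 FPKM with doxycycline, against 17.2 and 17.7 FPKM without. Its libraries did not overlap, and the 1.26-fold difference (log2 change 0.32 ± 0.05, SE) had a limma adjusted p of 0.0650, and 0.0138 with the block. Sgol1 was at 7.63 and 8.18 FPKM with doxycycline and 7.39 and 6.85 FPKM without, a log2 change of 0.13 (limma adjusted p = 0.431).

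The levels of the 38 genes spanned 3.88 FPKM for Ska1 to 84.7 FPKM for Cenpa as means of the 4 libraries, with a median of 18.9 FPKM, against 11.5 FPKM over all genes tested. After Cenpa the most abundant were Bub3, Pmf1 and Bub1b, at 63.5, 51.3 and 49.3 FPKM, and 17 genes were at 20 FPKM or more. The bottom of the order held Casc5, Cenpl, Cenpo and Ska1, of which Cenpo and Ska1 were under 5 FPKM. Summed over the 38, levels were 882 and 913 FPKM with doxycycline, against 790 and 800 FPKM without. The deposited bounds of doxycycline replicate 1 reached 1.96% of the value to either side for Cenpf and 19.0% for Cenpk, with a median of 6.68% over the 38, beside a median fold of 1.10.

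**Figure D3:**
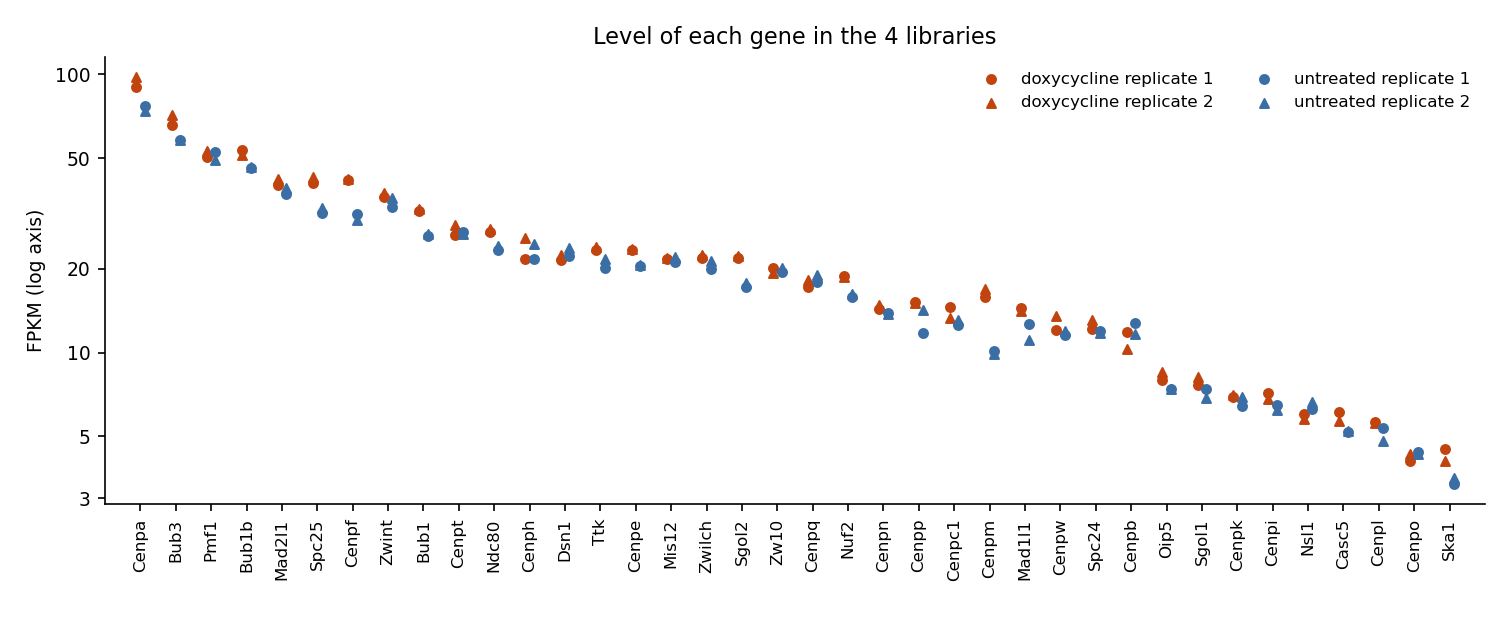
Level in FPKM (y axis, log scale) of each of the 38 genes in the 2 doxycycline (red) and 2 untreated (blue) libraries, ordered by mean level. Circles are replicate 1 and triangles replicate 2. Cenpa stands highest, at 89.9 and 97.8 FPKM with doxycycline and 77.0 and 74.0 FPKM without, and red points lie above blue ones for most genes.

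Partners of these proteins were read from a list of 34 further kinetochore genes, of which 33 were tested. Of the 33, 1 rose over all genes tested (background 0.218%), 9 rose with the block (background 2.73%) and none fell in either fit (0.0587%, and 0.973% with the block), and the list's median log2 change was 0.05. The one that rose was Plk1, the polo kinase that acts at kinetochores, at a mean of 42.8 FPKM with doxycycline and 31.3 FPKM without (1.37-fold, limma adjusted p = 0.0291). With the block the chromosomal passenger genes Aurkb, Birc5 and Incenp joined it, at log2 changes of 0.22, 0.28 and 0.24, while Cdca8, the fourth gene of that complex, did not (0.24, limma adjusted p = 0.0523 with the block). Also past the threshold with the block was Cdc20, the checkpoint's target, at a log2 change of 0.43. Other genes of the list lay near 0 or below: Hjurp, the chaperone of CENP-A, was at -0.04, Kntc1, the third RZZ subunit, at -0.10, and Trip13, the ATPase that disassembles the checkpoint complex, at -0.02. The list's count held without doxycycline replicate 1. It fell when any other library was left out, where the count over all genes fell too.

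Other cell cycle genes gave the setting. Of 44 further genes of G2 and mitosis, 5 rose (background 0.218%) and 27 rose with the block (2.73%). None fell in either fit (0.0587%, and 0.973% with the block), and the median log2 change was 0.24. The 4 with the largest changes were Gtse1 (0.84), the mitotic motor gene Kifc1 (0.71) and the cyclins Ccnb1 (0.57) and Ccnb2 (0.53). Of 46 genes of G1/S and DNA replication none passed in either fit, with a median of -0.01, and at an unadjusted p under 0.05 by limma 3 were higher (background 8.46%) and 5 lower (6.63%). The kinetochore genes thus had a median between these lists, and a difference between lists was not tested. The count of the G2 and mitosis list rose without doxycycline replicate 1 and fell when any other library was left out, as did the count over all genes.

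**Figure D4:**
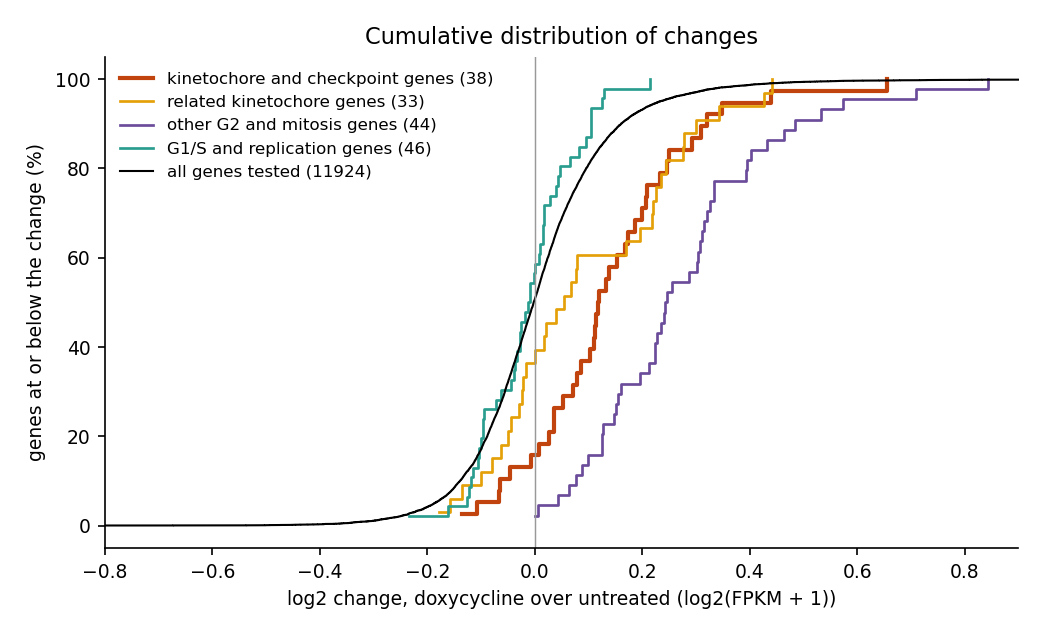
Cumulative share of genes (y axis, %) at or below a log2 change with doxycycline over untreated (x axis, log2(FPKM + 1) scale), for the 38 kinetochore and checkpoint genes, 3 other lists and all 11924 genes tested. The kinetochore curve has its median at 0.12, between those of the other G2 and mitosis genes (0.24) and of the G1/S genes (-0.01).

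Promoter elements, which the choice of names did not use, were each found in a larger share of these genes than of all tested genes with an entry. Promoters were found for 34 of the 38 genes, with no entry for Ska1, Zwilch, Spc24 and Nsl1, and several starts gave 39 promoters. The CHR (TTTGAA) was in 15 of the 39, or 38.5%, against 17.9% of all 32851 promoters of that length, and its variant TTCGAA in 4, or 10.3%, against 1.56%. CCAAT was in 27 of the 39, or 69.2%, against 37.4% of all, and an E2F-type match (TTCCCGC or TTCGCGC or TTGCCGC or TTGGCGC) in 11, or 28.2%, against 9.57%. All motifs were searched on both strands, and matches to different motifs shared bases only in Cenpw, by 1 base. Counted by gene and set against the 8516 genes that were tested here and have an entry, the CHR was in 41.2% against 13.5%, its variant in 11.8% against 2.45%, CCAAT in 67.6% against 44.0% and E2F-type matches in 32.4% against 20.7%. A match is a run of letters, not a bound site, and base composition was not matched.

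The CHR or its variant was found in 17 of the 34 genes, or 50%, against 15.6% of the tested genes. In 10 of them, 29.4% of the 34 against 2.08% of the tested genes, Bub1, Bub1b, Casc5, Cenpa, Cenpf, Ndc80, Oip5, Sgol1, Spc25 and Ttk, a match began within the 50 bases after the start. The 17 genes had a median log2 change of 0.17 and the 17 without it one of 0.08. Of the 7 genes that rose with the block, 6 had one, the exception being Sgol2, and all 7 had an NF-Y box, beside 50% and 67.6% of the 34 genes. The 11 genes with an E2F-type match had a median of 0.05 and the 23 without it one of 0.17. These medians are descriptions of genes chosen by name, and no test was made of them. Of the MIS12 complex, Pmf1 had a CHR match, beginning at -135, while Mis12 and Dsn1 had none.

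**Figure D5:**
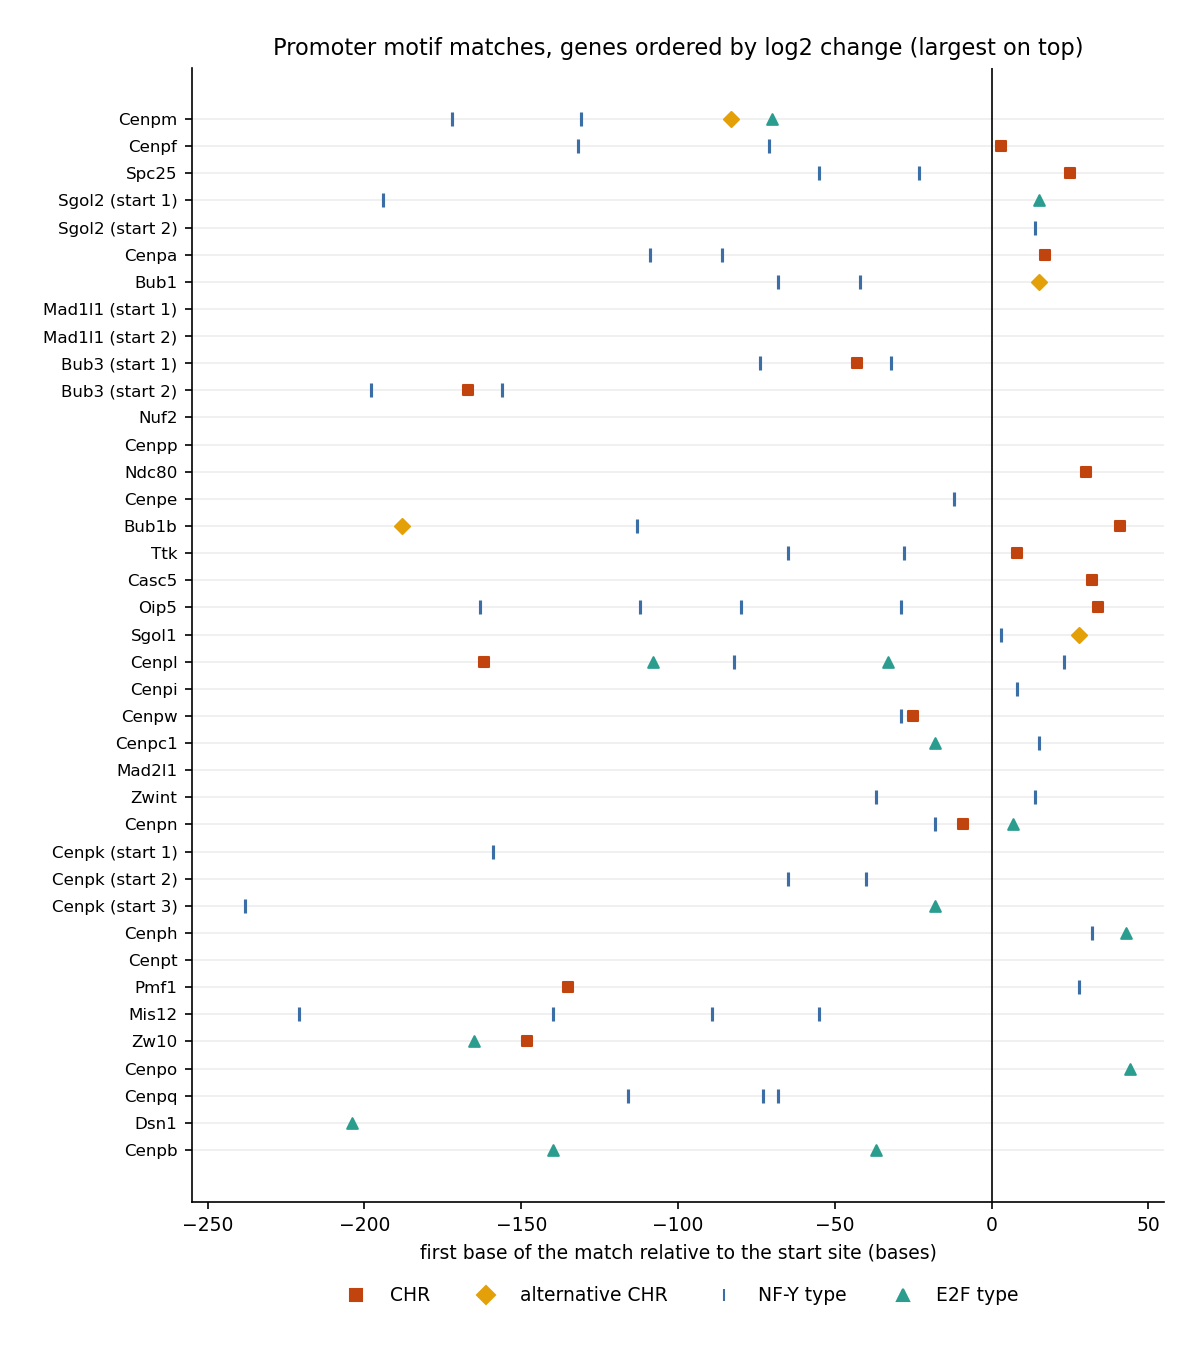
Position of motif matches (x axis, bases from the start site, marked by the vertical line) in the promoters of the 34 genes with an entry, ordered by log2 change with the largest on top. Red squares are the CHR, yellow diamonds its variant, blue bars the NF-Y box and green triangles E2F-type matches. Matches to the CHR or its variant right of the line are found in 10 genes.

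Seed sites of miR-202 were looked for because a microRNA's loss is known to release transcripts whose 3′ UTR pairs with its seed, bases 2 to 8. The 2 mature arms, from RefSeq (GRCm38.p6, chromosome 7, minus strand), are shown with the seed in capitals.
mmu-miR-202-3p: aGAGGUAUagcgcaugggaaga
mmu-miR-202-5p: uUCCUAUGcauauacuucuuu
In the longest annotated 3′ UTR of each gene (GENCODE M21), a heptamer that pairs with either seed was found in 3 of the 38 genes, or 7.89%, against 14.3% of 10526 tested genes with such a UTR. The median UTR was 949 bases for the 38 and 1324.5 bases for all. The genes were Mad2l1, Zwint and Sgol1, and none of the 7 that rose with the block was among them. Of Mad2l1 the longest UTR, 6802 bases, held 1 site of the 3p arm and 3 of the 5p arm. The locus deposited for Mad2l1 (mm9 chr6:66485462-66490985) is shorter than that UTR. The measured transcript thus cannot hold all of it, and whether it holds any of these sites was not tested. The 3p site of Mad2l1, that of Zwint and the 5p site of Sgol1 are shown with the pairing bases in capitals.
Mad2l1: gaaaacatttcATACCTCttagagatttt
Zwint: tctttcattaaATACCTCaattttctttg
Sgol1: tagaaaacttaCATAGGAtgtagatcttt
The log2 changes of the 3 genes were 0.11, 0.08 and 0.13, near the median of the 38, and none passed in either fit.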

How the data were processed

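RNA of 4 libraries was compared, 2 with and 2 without doxycycline, grouped by their titles. The authors deposited FPKM per gene symbol, with a table for each library that has Cufflinks columns, per the file headers. The submitters' processing notes name TopHat2 2.0.6, Cufflinks 2.0.2, Cuffdiff and mm9, without roles or order. The sources used here do not give the annotation, strand setting or any further scaling. FPKM were summed per symbol (259 symbols are on several lines; none of the 38 genes is). The table of doxycycline replicate 1 also gives loci, status (OK for all 38) and confidence bounds.

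The 11924 genes averaging 1 FPKM or more were fitted together by limma 3.58.1 under R 4.3.3. Values were log2(FPKM + 1), with a variance trend, two-sided tests, Benjamini-Hochberg adjustment over all genes tested and a threshold of 0.05. Changes on this scale understate those of low genes; folds are ratios of mean FPKM. FPKM are not counts, so no count test was used, and depth in reads is unknown. The alternative with a replicate block takes same-numbered libraries as 1 clone, since the design text names a pair of clones used in each condition; their deviations from the group means correlated at 0.215 across genes. Relative depth was read from symbols under 0.1 FPKM. The fit was tested on simulated data whose planted changes were all larger than those of the genes described here, Cenpm excepted. That test does not show how well smaller changes are recovered.

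The genes and lists were chosen with earlier results of these data known, so no set test and no adjustment over a list is given. The text gives each library's value for genes past the threshold with or without the block, the 10 largest changes, the highest and lowest levels and genes lower in both pairs, and, of other lists, up to 4 genes past the threshold; further genes were added by role. Promoters, miRNAs and older names are from RefSeq (GRCm38.p6), 3′ UTRs from GENCODE M21. Text analyses used Python 3.11.15.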

Additional observations from a re-analysis of the deposited data

How the results depend on the processing

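The direction of the group held while the number of calls did not. The median log2 change of the 38 genes stayed between 0.11 and 0.14 in every fit that gives one, and 28 or 29 of them were higher in both pairs under each pseudocount, filter and scaling tried. With the replicate block the genes past the threshold numbered 441 in all, 7 of the 38, 9 of the related kinetochore list and 27 of the other G2 and mitosis list, all higher in the 3 lists; with no filter on low FPKM they numbered 1, 0, 0 and 0; with a filter at 5 FPKM 88, 5, 3 and 14. Quantile normalization gave 48 in all and 11 in the G2 and mitosis list. Leaving out each library in turn gave 2 to 60 genes in all, 0 to 1 of the 38, 0 to 1 of the related list and 0 to 8 of the G2 and mitosis list. No gene of the 38 fell and none of G1/S passed under any of these. Of 416 values of single genes under the alternatives, 8 had the other sign, all with a library left out: Cenph ran from -0.081 to 0.15, Cenpt from -0.026 to 0.097, Mis12 from -0.022 to 0.039, Pmf1 from -0.018 to 0.069 and Zw10 from -0.036 to 0.022, none past the threshold. With no filter more and lower genes were tested, and with the stricter one fewer; for the other settings the cause was not tested. Where a library was left out, the lone library of a group is assumed to vary like the other group. Unknown depth limits what can be said of genes at low FPKM, and no level above which this ends was derived. The deposited bounds of doxycycline replicate 1 were widest for Cenpk, 19.0% to either side at 6.91 FPKM. For Cenpo, at 4.07 FPKM, they reached 10.3%.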

Other observations

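Partner subunits can be set against each other within a library, since FPKM is scaled for length. Spc25 stood at 3.33 and 3.26 times the FPKM of its partner Spc24 with doxycycline and at 2.66 and 2.82 times without. The ratio of Ndc80 to Nuf2 at the other end of the same complex was 1.44 and 1.48 with doxycycline and 1.47 and 1.48 without. Cenpm stood at 2.21 and 2.50 times Cenpi with doxycycline and at 1.56 and 1.59 times without. The ratio of Bub1 to Bub3 was 0.490 and 0.459 with doxycycline and 0.449 and 0.457 without. Bub1b stood at 1.66 and 1.56 times Bub1 with doxycycline and at 1.76 and 1.75 times without, Mad2l1 at 2.75 and 3.003 times Mad1l1 with doxycycline and at 2.93 and 3.51 times without, and Cenpm at 0.727 and 0.659 times Cenph with doxycycline and at 0.467 and 0.405 times without. These ratios are values of 4 libraries, with no test.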
